A study of Homo sapiens with 4 samples.

Results

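The death receptor pathway is described here through 8 genes: the receptors FAS, TNFRSF10A and TNFRSF10B, the adaptor FADD, the initiator caspases CASP8 and CASP10, and the inhibitors CFLAR and XIAP. Their intervals of open chromatin were chosen by position, as those whose midpoint lies in the gene body or, failing that, whose nearest protein-coding gene end within 100 kb belongs to the gene. This gave 47 intervals of 73135 in all, and all 47 passed the filter on low counts. The assay was ATAC-seq, which reads out open chromatin with a transposase that inserts tags into accessible DNA, and it covered 2 shIRF4 libraries and 2 control libraries. Both groups are TMD8, an established line of activated B cell-like (ABC) diffuse large B cell lymphoma. The shIRF4 cells carried a short hairpin RNA against IRF4, a transcription factor on which ABC lymphoma depends, and the control cells carried a scrambled hairpin. The library names write siIRF4 where the titles write shIRF4. How many hairpin sequences were used and for how long is not given in the sources used here, and the results are those of a single line.

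Binding of FAS ligand or TRAIL brings death receptors together at the cell surface. Their intracellular death domains recruit FADD, which gathers caspase-8 and caspase-10 into a signalling complex where the caspases activate each other. CFLAR encodes c-FLIP, which resembles the caspases but lacks protease activity and limits their activation in that complex, and XIAP binds and blocks caspases further down. In B cells this pathway removes cells in the germinal centre, and c-FLIP is known as a product of NF-kB signalling, which is active in ABC lymphoma.

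Promoter sequence from RefSeq (GRCh38.p14) was at hand for 5 of the 8 genes, in 14 windows, of which 12 overlapped a measured interval. One window is shown for each of 4 genes, the 250 bases before an annotated start, so that the stretch behind the start intervals described below can be read. Capitals mark motif matches on either strand.
FAS, chr10:88990548-88990797, plus strand: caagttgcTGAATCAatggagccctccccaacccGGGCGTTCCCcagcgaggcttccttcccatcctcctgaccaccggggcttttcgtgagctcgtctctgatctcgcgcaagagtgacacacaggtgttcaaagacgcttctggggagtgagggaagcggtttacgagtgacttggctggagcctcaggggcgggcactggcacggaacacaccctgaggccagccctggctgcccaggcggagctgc
CASP8, chr2:201233213-201233462, plus strand: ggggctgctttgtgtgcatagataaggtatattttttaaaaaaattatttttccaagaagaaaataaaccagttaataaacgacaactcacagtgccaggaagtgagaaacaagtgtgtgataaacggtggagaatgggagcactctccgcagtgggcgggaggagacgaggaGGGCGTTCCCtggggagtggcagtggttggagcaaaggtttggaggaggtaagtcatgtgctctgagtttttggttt
CFLAR, chr2:201118466-201118715, plus strand: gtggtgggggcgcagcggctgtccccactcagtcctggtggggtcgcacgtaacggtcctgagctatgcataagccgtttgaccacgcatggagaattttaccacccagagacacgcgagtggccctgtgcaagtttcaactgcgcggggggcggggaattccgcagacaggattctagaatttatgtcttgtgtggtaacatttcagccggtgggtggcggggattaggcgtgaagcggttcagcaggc
XIAP, chrX:123859458-123859707, plus strand: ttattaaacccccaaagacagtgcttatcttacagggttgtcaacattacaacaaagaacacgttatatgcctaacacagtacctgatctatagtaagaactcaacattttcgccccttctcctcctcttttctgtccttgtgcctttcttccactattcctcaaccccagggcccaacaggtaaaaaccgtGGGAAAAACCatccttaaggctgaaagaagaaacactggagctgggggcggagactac

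The motifs were searched on both strands. They were the interferon response element bound by IRF proteins (GAAA, any 2 bases, GAAA), found in 3.02% of all 35116 windows, the joint site of ETS and IRF proteins (GGAA, any 2 bases, GAAA, 2.41%), TGANTCA for AP-1 (6.57%), the joint site of AP-1 and IRF (TTTC, any 4 bases, TGA, 3.58%) and a form of the NF-kB site (GGGA, any 4 bases, CC, 22.6%). No window of the 5 genes held any of the 3 motifs that contain an IRF element. Only these windows were searched, as the sequence of the intervals themselves was not at hand. Called intervals without a window, such as those at 201123437 in CFLAR and 89086536 outside FAS, were thus not searched. The FAS window held an AP-1 and an NF-kB match, and the CASP8 and XIAP windows held an NF-kB match each. The CFLAR window shown held no match to the forms searched. Other forms of the NF-kB site were not searched, and the stretch ggggaattcc in the CFLAR window lies outside the form used. A match describes the letters and not binding.

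Of the 47 intervals, 8 were lower in shIRF4, 5 were higher and 34 were not called. The test was the edgeR quasi-likelihood test with a Benjamini-Hochberg adjusted p under 0.05, and "rose", "fell", "higher" and "lower" refer to calls of that test. Whether the libraries of the groups overlap is given below as description only. In many intervals that were not called they did not overlap either. Among all 73028 tested intervals 15.5% were lower, 7.26% were higher and 22.8% were called in either direction. The members' shares were 17.0% lower and 10.6% higher, which is near that background, and the median log2 fold change was 0.01 for the members and 0.01 for all intervals. All 8 lower intervals lay in the bodies of CFLAR, CASP10 and CASP8, and the 5 higher ones lay at FAS, TNFRSF10A and XIAP. TNFRSF10B and FADD had no called interval, nor one with an unadjusted p under 0.05, and DESeq2 called 0 there. Of the 10 member intervals within 1 kb of a gene end 0 were lower and 1, at XIAP, was higher, against 6.96% lower and 4.95% higher among all 14411 gene-end intervals. None of the 10 was lower at an unadjusted p under 0.05 or in DESeq2. The limit of 1 kb leaves out some intervals that hold an annotated start. With these included there were 15 intervals, of which 1, at CFLAR, was lower and 1, at XIAP, was higher. The share among all intervals of that kind was not counted. With shIRF4 replicate 1 left out, the deeper library of that group, 4 members were lower and 1 was higher. Without control replicate 1 or control replicate 2 it was 6 lower and 3 higher, and DESeq2 called 3 lower and 1 higher.

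**Figure D1:**
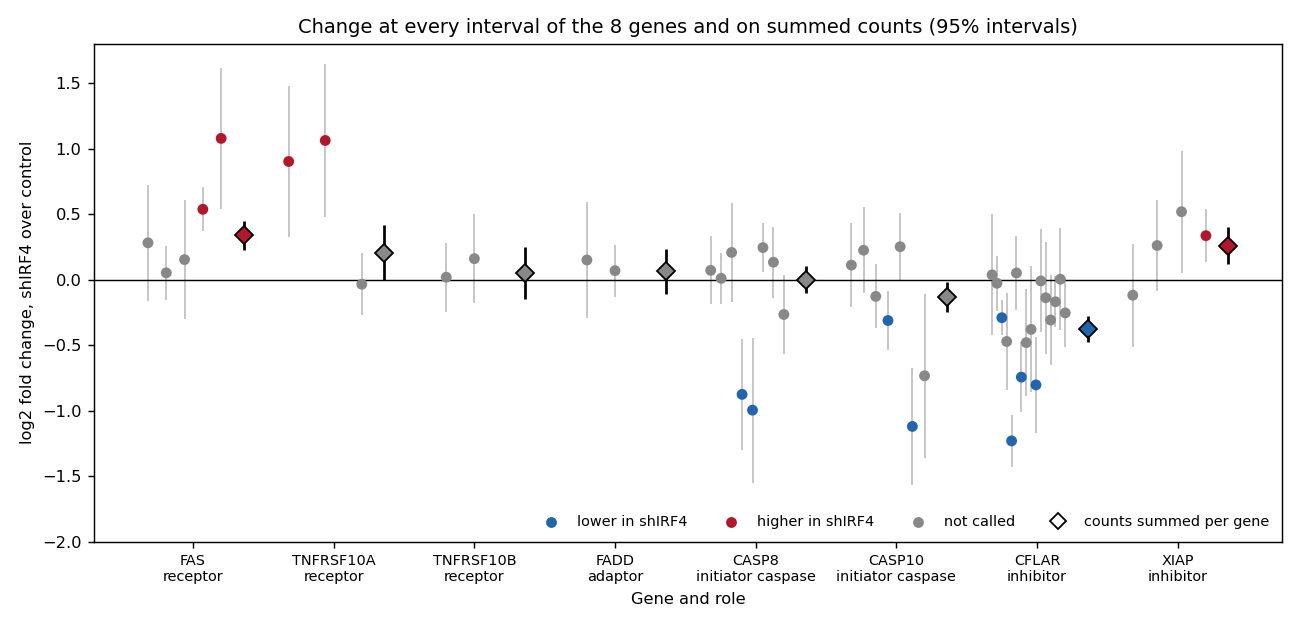
Log2 fold change of shIRF4 over control (y axis) at each interval of the 8 genes (circles, in genomic order within a gene) and on counts summed per gene (diamonds), with 95% intervals. The 8 lower intervals (blue) belong to CASP8, CASP10 and CFLAR, and the 5 higher ones (red) to FAS, TNFRSF10A and XIAP.

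ATAC-seq does not measure IRF4 RNA or protein, so the depth of the knockdown was not checked here. Total counts per library ran from 9112860 to 17954924, and member intervals held 10 to 954 counts. Log2 CPM (CPM being counts relative to the library total, scaled with TMM factors) correlated over intervals at r = 0.981 in the shIRF4 pair, 0.987 in the control pair and 0.941 to 0.952 between groups. All 8 B cell markers had an interval at a gene end, with a summed level of 981 to 1068 CPM in shIRF4 and 1002 and 1002 CPM in control. Of 6 T cell markers 3 had one, CD3D, CD3G and CD2 having none, and the summed level was 51.8 to 55.5 CPM in shIRF4 and 60.3 to 60.8 CPM in control. Of 3 NK cell markers only NKG7 had one, and so did 2 of 4 myeloid and 3 of 5 epithelial or fibroblast markers, with KLRD1, NCAM1, CSF1R, LYZ, EPCAM and KRT8 at none. The summed level was 248 and 266 CPM in shIRF4 and 277 and 272 CPM in control for NKG7, 19.5 and 21.3 CPM in shIRF4 and 17.3 and 19.5 CPM in control for the myeloid markers, and 39.7 and 36.7 CPM in shIRF4 and 41.9 and 42.3 CPM in control for the epithelial and fibroblast markers. The NKG7 level exceeded the median of the B cell markers, 129 CPM in shIRF4 and 140 CPM in control. A gene-end interval counts here for every gene with an end within 1 kb of it. Whether the NKG7 level belongs to NKG7 or to a neighbouring gene was not tested. In a pool of nuclei, fewer cells with an open site and a less open site in every cell cannot be told apart.

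FAS encodes the CD95 receptor on chromosome 10 (88964050 to 89017059). Its accessibility rose 70010 bp outside the gene, while the interval over its annotated starts showed no call. The interval at 89086536 to 89087602 had 38.5 and 37.5 CPM in the shIRF4 libraries, against 27.5 and 25.1 CPM in the control libraries. Both shIRF4 libraries stood above both control libraries, and the pairs were tight. The rise was 1.45-fold (log2 fold change 0.54, SE 0.08, adjusted p = 3.72e-05, edgeR). DESeq2 also called it (0.54 at adjusted p = 0.00749), and so did edgeR with any 1 library left out (0.47 to 0.60). The next interval, 177 bp further on at 89087780 to 89088093, was much weaker. It had 3.80 and 2.73 CPM in shIRF4 and 1.76 and 1.49 CPM in control, on 20 to 70 counts. Its log2 fold change was 1.08 (SE 0.26, adjusted p = 0.00396, edgeR), and the 2 groups did not overlap. That call was lost without shIRF4 replicate 1 (0.76 at adjusted p = 0.175), without control replicate 2 (0.95 at adjusted p = 0.0515) and in DESeq2 (1.04 at adjusted p = 0.193).

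The FAS interval at 88990314 to 88992069 holds 3 annotated FAS starts and the window printed above, and it also lies in the body of the overlapping gene ACTA2, a smooth muscle actin gene. It averaged 21.9 ± 2.27 CPM in shIRF4 and 20.7 ± 1.31 CPM in control (SD, n = 2 each). The groups overlapped, and the log2 fold change of 0.05 had a 95% interval from -0.15 to 0.26 (adjusted p = 0.762, edgeR). Set against the fold of the gene as a whole, this interval was lower by a log2 difference of -0.31 (adjusted p = 0.0237, edgeR diffSpliceDGE). The fold of the gene includes the distant interval at 89086536, which averaged 38.0 CPM in shIRF4. All FAS intervals together averaged 76.4 CPM there, so the difference depends strongly on that distant interval. Of all 60795 intervals so tested, 17.7% differed from their gene. The distant interval at 89086536 did not differ detectably from the gene, of which it is itself a large part (0.18, adjusted p = 0.128, edgeR diffSpliceDGE). Its neighbour at 89087780 differed upward (0.73 at adjusted p = 0.0423), and this call was lost when shIRF4 replicate 1 (0.38 at adjusted p = 0.634), control replicate 1 (0.81 at adjusted p = 0.138) or control replicate 2 (0.63 at adjusted p = 0.312) was left out. The remaining FAS intervals, in the body at 88974817 (0.28) and outside at 89029714 (0.15), were not called. The one at 88974817 also lies in the body of ACTA2.

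TNFRSF10A encodes the TRAIL receptor DR4 on chromosome 8 (23190452 to 23225102). Both of its intervals inside the gene rose, at low levels. The interval at 23220440 to 23220673 had 3.42 and 2.29 CPM in shIRF4, against 1.26 and 1.93 CPM in control (log2 fold change 0.90, SE 0.28, adjusted p = 0.0212, edgeR). Its neighbour at 23221109 to 23221375, 435 bp away, had 3.75 and 2.73 CPM in shIRF4, against 2.18 and 1.12 CPM in control (1.06, SE 0.28, adjusted p = 0.00835, edgeR). In both, shIRF4 replicate 1 was the highest library and no control library reached either shIRF4 library. They rest on 15 to 69 counts a library. The first call was lost without control replicate 1 (0.64 at adjusted p = 0.225) and the second without control replicate 2 (0.63 at adjusted p = 0.229). Without shIRF4 replicate 1 neither was called (0.51 at adjusted p = 0.441 and 0.76 at adjusted p = 0.215), nor in DESeq2 (0.86 at adjusted p = 0.393 and 1.01 at adjusted p = 0.243). The interval at the gene end, at 23224698 to 23225580, averaged 12.9 ± 0.649 CPM in shIRF4 and 13.3 ± 0.319 CPM in control (SD, n = 2 each) and was not called (-0.03, 95% interval -0.27 to 0.20).

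TNFRSF10B, which encodes the other TRAIL receptor with a death domain, DR5, lies on the same chromosome, 121421 bp from TNFRSF10A. Neither of its intervals was called. The gene-end interval at 23068573 to 23069452 had 15.4 and 11.3 CPM in shIRF4 and 14.1 and 13.2 CPM in control. The shIRF4 libraries lay on either side of the control pair, and the 95% interval of the log2 fold change ran from -0.25 to 0.28. The interval 15227 bp outside the gene, at 23084049, changed by 0.16. Whether the TRAIL receptors differ from each other was not tested.

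FADD, the adaptor on chromosome 11 (70203296 to 70207390), had 2 intervals and no call. The interval over its start, at 70202636 to 70204297, had 20.1 and 22.3 CPM in shIRF4 and 20.4 and 19.6 CPM in control. The groups overlapped, and the 95% interval of the log2 fold change was -0.13 to 0.27. The smaller gene-end interval at 70202034 changed by 0.15 (95% interval -0.30 to 0.60).

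CFLAR, CASP10 and CASP8 are neighbours on chromosome 2, in that order, over 172 kb from the start of CFLAR to the end of CASP8, with gaps of 6454 and 4057 bp between the genes. They held 31 of the 47 intervals, of which 8 fell and none rose in edgeR, against 15.5% lower and 7.26% higher among all tested intervals. In the upward direction 1 interval had an unadjusted p under 0.05, and DESeq2 called 0. The 23 others were evenly split, 12 below and 11 above a log2 fold change of 0. Among the 51 other intervals within 1 Mb of CFLAR, 5 were lower and 5 higher, and their median log2 fold change was 0.06.

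**Figure D2:**
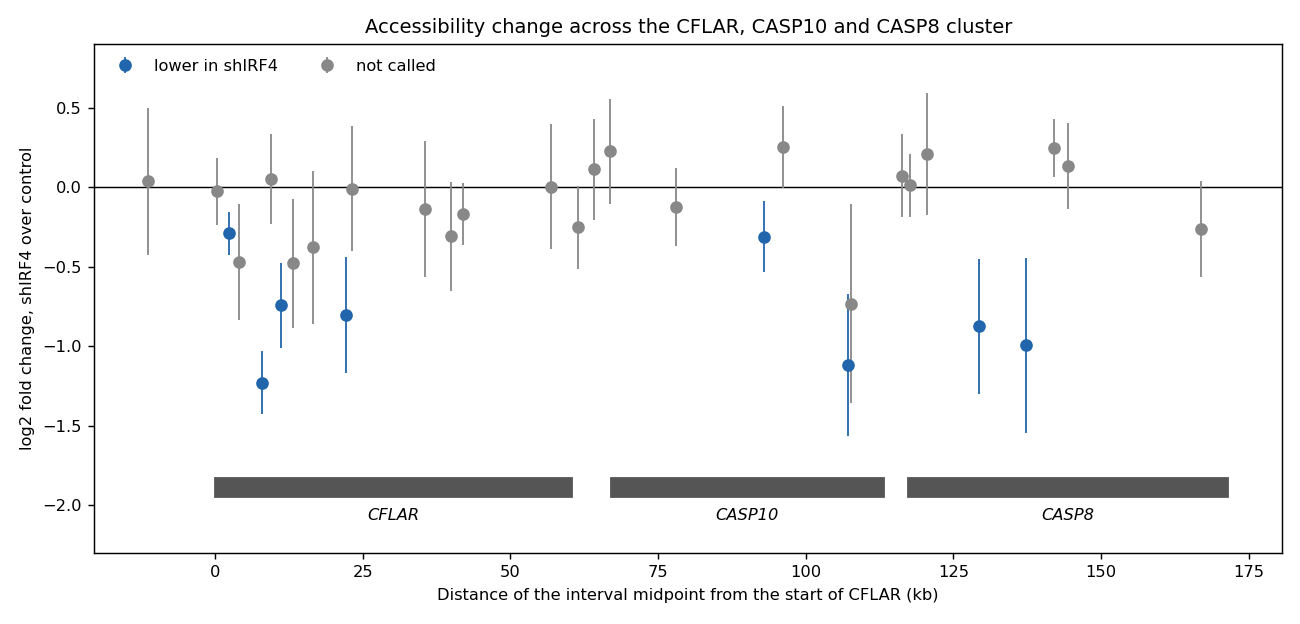
Log2 fold change of shIRF4 over control with its 95% interval (y axis) against distance from the start of CFLAR in kb (x axis) for the 31 intervals of CFLAR, CASP10 and CASP8, with the gene bodies as grey bars. The 8 lower intervals (blue) lie between -1.23 and -0.29 and the 23 not called (grey) between -0.73 and 0.25, and the lowest is at -1.23, 7.99 kb inside CFLAR.

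CASP8 encodes the initiator caspase of the complex (201233463 to 201287711). A pair of intervals deep in its body fell while the intervals over its starts did not. The interval at 201245377 to 201245747 had 2.77 and 3.38 CPM in shIRF4, against 5.03 and 5.88 CPM in control (log2 fold change -0.88, SE 0.20, adjusted p = 0.00309, edgeR). Fewer counts fell on its partner at 201253294 to 201253478, with 1.47 and 1.85 CPM in shIRF4, against 3.78 and 2.68 CPM in control (-0.996, SE 0.27, adjusted p = 0.00862, edgeR). The groups did not overlap in either. Both also fell relative to CASP8 as a whole (differences of -0.89, adjusted p = 0.000457, and -1.01, adjusted p = 0.00191, edgeR diffSpliceDGE). They are short and hold 17 to 79 counts a library. Without shIRF4 replicate 1 neither fall was called (-0.68 at adjusted p = 0.0942 and -0.77 at adjusted p = 0.179). The first was also lost without control replicate 2 (-0.75 at adjusted p = 0.0579) and the second without control replicate 1 (-0.74 at adjusted p = 0.139), and DESeq2 called neither (-0.84 at adjusted p = 0.145 and -0.97 at adjusted p = 0.246). The differences from the whole gene were not called with the same libraries left out (-0.71 and -0.80 without shIRF4 replicate 1, -0.75 without control replicate 2 and -0.78 without control replicate 1).

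Over its first annotated start CASP8 hardly differed between groups. The interval at 201232964 to 201234549, which holds the window printed above, averaged 19.6 ± 0.626 CPM in shIRF4 and 19.6 ± 0.0473 CPM in control (SD, n = 2 each; 95% interval of the log2 fold change -0.19 to 0.21). The strongest CASP8 interval, at 201257377 to 201258918, covers an internal start and had 27.8 and 26.0 CPM in shIRF4, against 23.8 and 21.9 CPM in control. Its groups did not overlap, and its log2 fold change of 0.25 stopped just short of the threshold (adjusted p = 0.0506, edgeR). It was called when libraries were scaled by totals only (0.29 at adjusted p = 0.0214) or by DESeq2's size factors (0.25 at adjusted p = 0.0447), and without shIRF4 replicate 2 (0.28 at adjusted p = 0.0153). The other CASP8 intervals not called lay between -0.27 and 0.21. On summed counts CASP8 stood at a log2 fold change of 0.00 (95% interval -0.10 to 0.10), with intervals of both signs inside that sum.

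CASP10 encodes the sister caspase (201183141 to 201229406). Its clearest change was a fall in the body at 201223102 to 201223678. This interval had 2.82 and 2.29 CPM in shIRF4, against 4.95 and 6.47 CPM in control, 2.17-fold lower in shIRF4 (log2 fold change -1.12, SE 0.21, adjusted p = 0.000498, edgeR). Both shIRF4 libraries stood below both control libraries. It fell relative to the whole gene too (-1.0, adjusted p = 0.000119, edgeR diffSpliceDGE), it was called by DESeq2 (-1.13 at adjusted p = 0.0283), and it was called with any 1 library left out (-1.31 to -0.91). The neighbouring interval 105 bp away, at 201223784, had a log2 fold change of -0.73 that missed the threshold on 10 to 25 counts a library (adjusted p = 0.0845, edgeR).

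A second CASP10 interval, at 201208670 to 201209407, was near the threshold. It had 13.5 and 13.9 CPM in shIRF4, against 15.9 and 17.8 CPM in control (-0.31, SE 0.11, adjusted p = 0.0414, edgeR). That call was lost without control replicate 1 (-0.38 at adjusted p = 0.0685), control replicate 2 (-0.23 at adjusted p = 0.396) or shIRF4 replicate 1 (-0.28 at adjusted p = 0.212), in DESeq2 (-0.30 at adjusted p = 0.513), with library totals only (-0.26 at adjusted p = 0.0884) and with the control pair summed (-0.32 at adjusted p = 0.104). In all it was lost in 8 of 11 alternatives. The gene-end interval of CASP10 at 201182734 averaged 7.62 ± 0.0259 CPM in shIRF4 and 6.55 ± 0.946 CPM in control (SD, n = 2 each) and was not called (0.22, 95% interval -0.10 to 0.55). The remaining 3 CASP10 intervals lay between -0.13 and 0.25, and the one at 201211958 was higher than the gene as a whole (0.37, adjusted p = 0.0394, edgeR diffSpliceDGE).

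CFLAR (201116164 to 201176687) held the largest fall among the 47 intervals. It has the most intervals, and 4 of its 16 fell, beside 2 of 8 at CASP8, 2 of 7 at CASP10 and 15.5% of all tested intervals. In all, 13 of the 16 had a log2 fold change below 0. The interval at 201123437 to 201124878, with its midpoint 7.99 kb inside the gene, had 12.5 and 13.3 CPM in shIRF4, against 30.3 and 30.0 CPM in control. Replicates lay close together and the groups far apart. It was 2.35-fold lower in shIRF4 (log2 fold change -1.23, SE 0.10, adjusted p = 5.51e-09, edgeR). It was the only one of the 47 intervals to be called against a 1.5-fold minimum (adjusted p = 1.55e-05, edgeR glmTreat). It was called under all 11 alternatives to the fit, with log2 fold changes of -1.27 to -1.17. It fell relative to CFLAR as a whole as well (-0.87, adjusted p = 6.71e-11, edgeR diffSpliceDGE).

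Beside it, the interval at 201126819 to 201127924 had 9.17 and 8.07 CPM in shIRF4, against 16.0 and 13.5 CPM in control (-0.74, SE 0.13, adjusted p = 0.000181, edgeR). Relative to CFLAR as a whole this interval fell as well (-0.38, adjusted p = 0.032, edgeR diffSpliceDGE). DESeq2 called it too (-0.75 at adjusted p = 0.0156), as did edgeR with any 1 library left out (-0.87 to -0.62). Further in, the interval at 201137994 to 201138718 had 3.85 and 4.58 CPM in shIRF4, against 7.38 and 6.99 CPM in control (-0.80, SE 0.18, adjusted p = 0.00177, edgeR). The groups did not overlap in either, but the second call was lost without shIRF4 replicate 1 (-0.64 at adjusted p = 0.0651) and in DESeq2 (-0.78 at adjusted p = 0.106). Between the intervals at 201123437 and 201126819 lies one, at 201125181, that did not follow them. It had 9.39 and 9.27 CPM in shIRF4 and 8.31 and 9.67 CPM in control (0.05, 95% interval -0.23 to 0.34), and it was higher than the gene as a whole (0.41, adjusted p = 0.0349, edgeR diffSpliceDGE).

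At the beginning of CFLAR, 1 of 2 adjoining intervals fell, and the difference between them was not tested. The interval at the first base of the gene, 201115833 to 201117169, averaged 20.5 ± 0.469 CPM in shIRF4 and 20.9 ± 2.74 CPM in control (SD, n = 2 each; log2 fold change -0.03, 95% interval -0.24 to 0.18). Against the fold of CFLAR as a whole it was higher (0.33, adjusted p = 0.00996, edgeR diffSpliceDGE). The next interval, 118 bp further on at 201117288 to 201119914, holds an annotated start and the window printed above. It had 51.8 and 52.1 CPM in shIRF4, against 63.3 and 63.7 CPM in control, the most CPM of the CFLAR intervals. The spread within each pair was small, and the fall was slight (1.22-fold lower in shIRF4, log2 fold change -0.29, SE 0.06, adjusted p = 0.00208, edgeR). It was called with any 1 library left out (-0.30 to -0.27) but not in DESeq2 (-0.28 at adjusted p = 0.185), and it did not differ detectably from the fold of the whole gene (0.07, adjusted p = 0.577, edgeR diffSpliceDGE). A further interval with an annotated start, at 201132603, had 3.96 and 2.40 CPM in shIRF4 and 3.69 and 5.13 CPM in control, with overlapping groups, and was not called (-0.38, 95% interval -0.86 to 0.10). The 12 CFLAR intervals that were not called lay between -0.48 and 0.05.

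**Figure D3:**
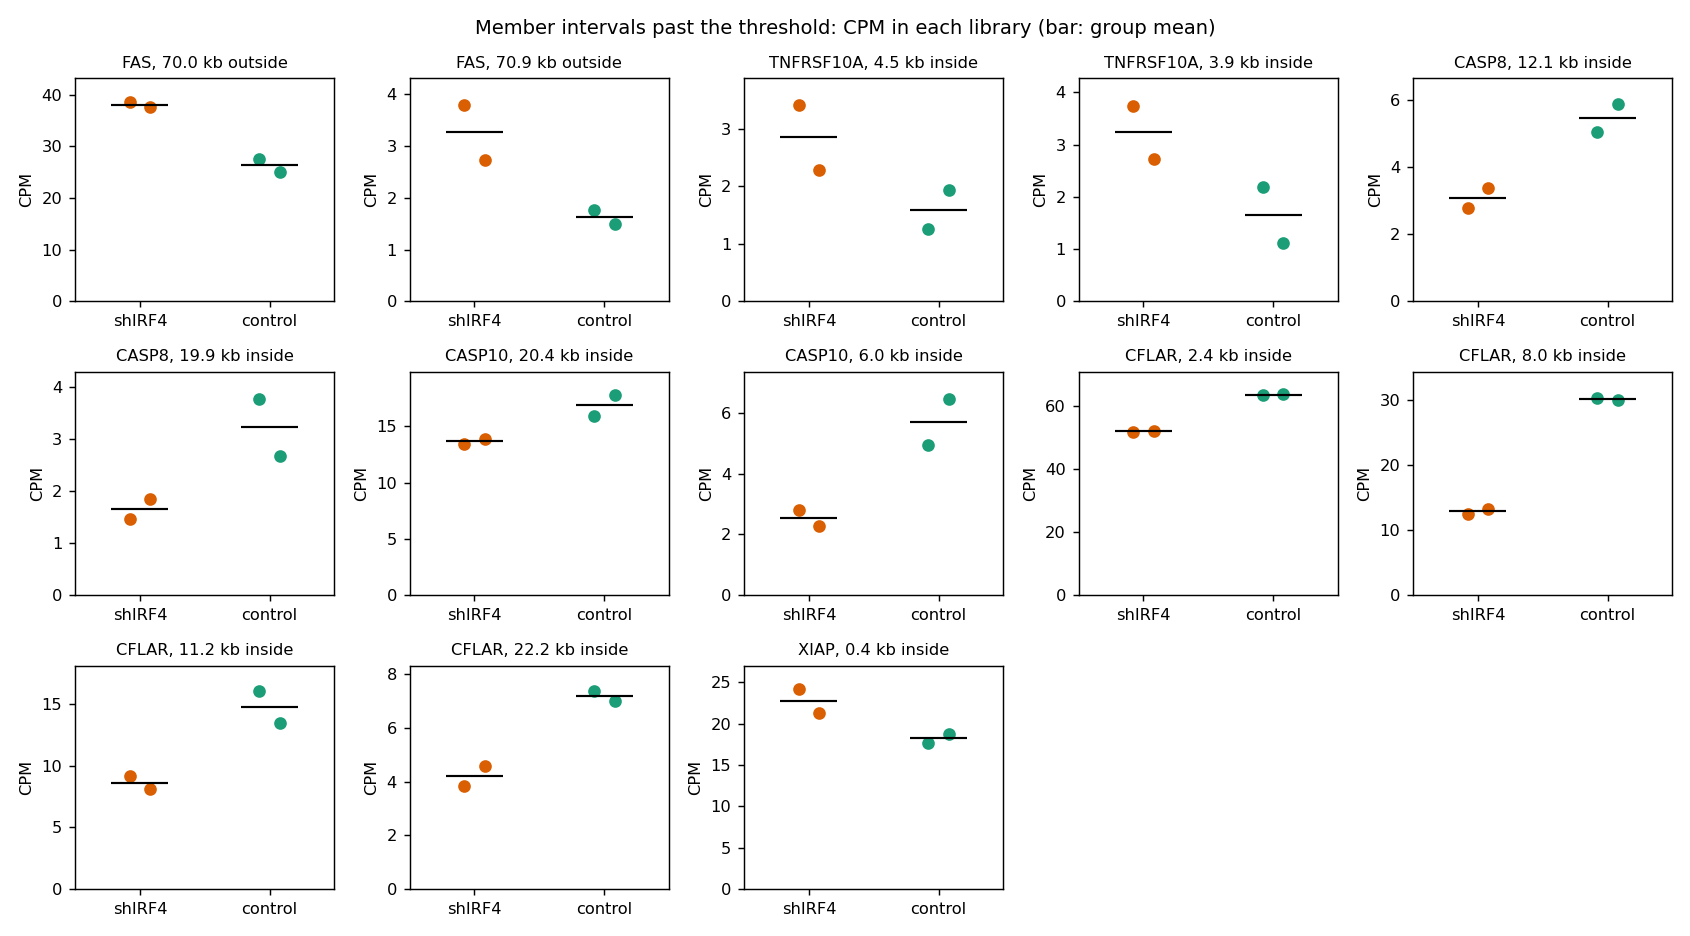
CPM in each library (points; y axis, from 0) and group mean (bar) for the 13 called intervals, with shIRF4 left of control. Titles give the gene and the distance of the interval's midpoint from the nearest end of the gene. These intervals were chosen by their call on the same libraries, so the separation of their groups adds no support to the calls. Many intervals not called, such as that of CASP8 at 201257377, do not overlap either, and the share among all intervals was not counted. The pairs of the CFLAR interval 7.99 kb inside the gene (12.5 and 13.3 CPM in shIRF4 against 30.3 and 30.0 CPM in control) are the farthest apart.

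XIAP encodes an inhibitor that binds caspases directly (chromosome X, 123859708 to 123913972). The interval over its start, at 123859441 to 123860705, rose. It had 24.2 and 21.3 CPM in shIRF4, against 17.6 and 18.8 CPM in control, and contains the window printed above and 3 annotated starts. Both shIRF4 libraries were above both control libraries (1.26-fold, log2 fold change 0.34, SE 0.10, adjusted p = 0.0154, edgeR). This call was lost without control replicate 1 (0.29) or shIRF4 replicate 1 (0.23), with the control pair summed (0.33) and in DESeq2 (0.33 at adjusted p = 0.345). In all it was lost in 5 of 11 alternatives. The other 3 intervals lie outside the gene, between 26172 and 39914 bp from it, and had log2 fold changes of -0.12, 0.26 and 0.52 with no call. The 12 other intervals within 1 Mb of XIAP had a median log2 fold change of 0.15, with 1 higher and 1 lower.

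Accessibility of the starts can be compared between genes only per length. For each gene, the gene-end or annotated-start interval with the most CPM was taken and expressed per kb of its length. In shIRF4 the means ran from 12.3 CPM per kb at CASP10 over 12.4 at FAS, 12.8 at FADD, 14.6 at TNFRSF10A, 15.2 at TNFRSF10B, 17.4 at CASP8 and 18.0 at XIAP to 19.8 at CFLAR. In control the order of means was CASP10 (10.5), FAS (11.8), FADD (12.0), XIAP (14.4), CASP8 (14.8), TNFRSF10A (15.1), TNFRSF10B (15.5) and CFLAR (24.2). Most neighbours in either order differed by less than the larger of their SDs (n = 2 each), which ran from 0.0418 to 3.23 CPM per kb in shIRF4 and from 0.0907 to 1.52 CPM per kb in control. The steps beyond that spread were those between FADD and TNFRSF10A and between XIAP and CFLAR in shIRF4, and between FADD and XIAP and between TNFRSF10B and CFLAR in control. The order depends on which interval stands for a gene: the CASP8 interval at 201260296, which also holds an annotated start but has fewer CPM in all, had 20.3 CPM per kb in shIRF4 and 18.2 CPM per kb in control, above the CFLAR interval in shIRF4.

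**Figure D4:**
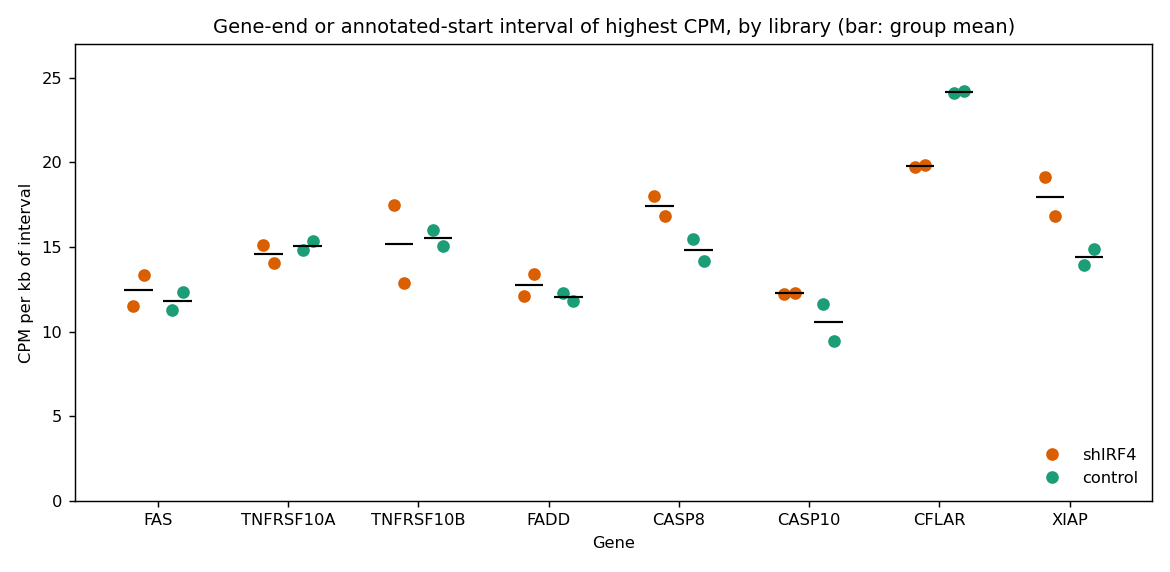
CPM per kb of interval (y axis) in each library (points) with group means (bars) for the gene-end or annotated-start interval of highest CPM at each gene (x axis), with shIRF4 left of control. At CFLAR the shIRF4 mean of 19.8 lies below the control mean of 24.2, at XIAP the shIRF4 mean of 18.0 lies above the control mean of 14.4, and at FAS, FADD and both TRAIL receptors the points of the groups overlap.

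With the counts of all intervals summed per gene, CFLAR was lower, FAS and XIAP were higher and the other 5 genes were not called. Of all 16331 genes with an interval, 13.5% were lower and 6.89% higher in this test. CFLAR had 183 and 183 CPM in shIRF4, against 234 and 241 CPM in control (log2 fold change -0.38, SE 0.05, adjusted p = 2.84e-05, edgeR). FAS had 75.6 and 77.2 CPM in shIRF4, against 61.7 and 59.1 CPM in control (0.34, SE 0.05, adjusted p = 0.00026, edgeR). In both genes the groups were far apart. The FAS call rests on the intervals 70010 and 70877 bp outside the gene: with a limit of 50 kb for assignment they drop out, and FAS stood at 0.08 (95% interval -0.08 to 0.24, adjusted p = 0.524, edgeR). The CFLAR call rests on intervals more than 1 kb from its ends: with gene-end intervals alone CFLAR stood at -0.14 (adjusted p = 0.303, edgeR). Those left out include the interval at 201117288, which holds an annotated start and was itself lower (-0.29, adjusted p = 0.00208, edgeR). XIAP had 41.5 and 38.9 CPM in shIRF4, against 33.4 and 34.1 CPM in control (0.26, SE 0.07, adjusted p = 0.0116, edgeR), a call lost without control replicate 1 (0.25 at adjusted p = 0.0709), without shIRF4 replicate 1 (0.20 at adjusted p = 0.12) and in DESeq2 (0.26 at adjusted p = 0.29). TNFRSF10A had 21.9 and 18.7 CPM in shIRF4, against 17.8 and 17.9 CPM in control, with a log2 fold change of 0.21 that was called only without shIRF4 replicate 2 (0.29 at adjusted p = 0.0233). CASP10 was at -0.13 (95% interval -0.25 to -0.01, adjusted p = 0.109), and FADD and TNFRSF10B were at 0.06 and 0.05.

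Genes with as many intervals and the most similar summed profile were named for each member with a call, by the distance between log2 CPM values centred on the control mean, over 4 libraries. They were SH3TC1, PLXNA2 and CD226 for CFLAR (distances 0.04, 0.04 and 0.06), STIM1, PLEKHA6 and NXPH2 for FAS (0.05, 0.05 and 0.06) and STX16, SCPEP1 and NEFH for XIAP (0.03, 0.04 and 0.04). For TNFRSF10A they were APBB1, DAPK1 and PPP2R2B, for CASP10 SOX4, HEMK2 and PGF, and for CASP8 LRRC20, SNRNP70 and MCM3. With 4 libraries in 2 groups, such a distance says little more than that the log2 fold changes are alike.

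Around the 8 genes, 33 partners of the pathway were listed, of which 28 had 102 intervals and 100 were tested. Of these, 11 were lower and 9 higher, and the median log2 fold change was 0.06. The shares of 11% lower and 9.0% higher lie on either side of the 15.5% and 7.26% of all intervals. Ligand genes had 2 of 12 intervals higher. TNF, which encodes the founding ligand of the family, rose at 1 of its 2 gene-end intervals (log2 fold change 0.70, adjusted p = 0.00215, edgeR). That interval had 9.52 ± 1.43 CPM in shIRF4 and 6.06 ± 0.570 CPM in control (SD, n = 2 each). The other, at 31576907, was not called (0.21, 95% interval -0.19 to 0.62). An interval 19629 bp outside FASLG, the gene of FAS ligand, rose by 0.60 (adjusted p = 0.022, edgeR), and none of the 3 at TNFSF10, the gene of TRAIL, was called. DESeq2 called neither rise. The TNF call was lost without shIRF4 replicate 1 (0.51 at adjusted p = 0.0968), and the FASLG call with either control library or shIRF4 replicate 1 left out (0.37 to 0.60).

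Among other receptors, calls were found at TNFRSF21 alone, which encodes the death receptor DR6. Of its 13 intervals 4 fell and 3 rose, beside 15.5% lower and 7.26% higher among all tested intervals. The fall of smallest p, 50869 bp outside the gene, had 15.9 and 16.6 CPM in shIRF4, against 25.6 and 27.2 CPM in control (-0.71, SE 0.09, adjusted p = 7.75e-06, edgeR). TNFRSF1A, the TNF receptor gene, had 3 intervals and no call. The BID gene, whose product carries the signal to mitochondria, had 1 of 10 intervals lower (-0.33, adjusted p = 0.00528, edgeR), and XAF1, the gene of a XIAP antagonist, rose at its interval (0.50, adjusted p = 0.029, edgeR). DESeq2 called neither of these. The BID call was lost without control replicate 1 (-0.22 at adjusted p = 0.206), and the XAF1 call without control replicate 2 (0.26 at adjusted p = 0.475) or shIRF4 replicate 1 (0.44 at adjusted p = 0.18).

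Adaptor and kinase genes had 2 of 30 intervals lower and 1 higher, and genes of ubiquitin enzymes had 1 of 18 lower and 1 higher, against 15.5% lower and 7.26% higher among all tested intervals. In RIPK1, the kinase gene of the TNF receptor complex, 1 of 7 intervals fell, with 1.14 and 1.09 CPM in shIRF4, against 2.77 and 3.72 CPM in control (-1.53, SE 0.28, adjusted p = 0.000271, edgeR). It was lower with any 1 library left out. Single falls in TRAF2 (-0.59) and in RBCK1, a subunit gene of the linear ubiquitin ligase (-0.50), and single rises in MLKL, the necroptosis effector gene (0.69), and CYLD, a deubiquitinase gene (0.79), were not called in DESeq2. The TRAF2 call was lost without control replicate 2 (-0.46) or shIRF4 replicate 1 (-0.59), and the RBCK1 call without control replicate 1 (-0.43) or shIRF4 replicate 1 (-0.32). The MLKL call was lost without control replicate 2 (0.39) or shIRF4 replicate 1 (0.63), and the CYLD call without control replicate 1 (0.36), shIRF4 replicate 1 (0.99) or shIRF4 replicate 2 (0.68). BIRC2 and BIRC3, which encode ubiquitin ligases of the receptor complex, had 6 intervals together and no call.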

How the data were processed

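The authors deposited raw read counts per merged peak, made with featureCounts 2.0.0 per the file headers: reads were reduced to their 5′ end, marked duplicates were ignored and fractions of multi-mapping reads were requested, though all counts are whole numbers. All 4 libraries were counted on the same 73135 intervals of hg38 (build per the submitters' processing notes), while aligner and peak caller are not given in the sources used here. Total counts were 17954924 and 9112860 in the shIRF4 libraries and 12152153 and 13609123 in the control libraries.

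An interval was assigned to every protein-coding gene of a RefSeq table (GRCh38.p14, without strand) that spans its midpoint, or else, within 100 kb, to the gene whose end is closest. This placed 65302 intervals. A gene-end interval lies within 1 kb of either end. Counts were tested with edgeR 4.0.16 in R 4.3.3 (filterByExpr, TMM factors of 0.981 to 1.03, quasi-likelihood F-test with group as the only term, two-sided) on all 4 libraries, with Benjamini-Hochberg adjustment over the 73028 intervals left after the filter. The same test was run on counts summed per gene over 16331 genes. Each interval was also set against the fold of its whole gene with edgeR's diffSpliceDGE, a test added after the data were seen. DESeq2 1.42.0, other scalings, no filter and each library left out were alternatives. So were the replicate block, the control pair summed as 1 sample, a 1.5-fold minimum and other assignments. With 1 library left out or the control pair summed, the lone sample of a group is assumed to vary like the other group. The scripts were run on simulated counts with a single fixed dispersion, as a check of the code. That setting differs from these data and says nothing about how reliable the calls are. P-values measure the spread between libraries, which may be technical, since no label says that they came from separate cultures. Chi-square over its degrees of freedom was 2.01 in the shIRF4 pair and 1.04 in the control pair, where counting alone gives about 1. The control pair thus differed by little more than counting. Its small p (1.77e-16, chi-square test) reflects the large number of intervals and not a large spread. Each library was kept in the main fit, and whether the control libraries are separate cultures was not tested.

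The 8 genes and all lists were chosen with earlier results of these data known. By rule, the text accounts for every interval of the 8 genes, names each called one, names the highest and the gene-end intervals of genes with no call, and names the called interval of smallest p for each pathway partner, apart from some partners that are counted but not reported here. It also names the 3 genes nearest to each member with a call, by the distance of centred log2 CPM of summed counts among genes with equally many intervals.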

Additional observations from a re-analysis of the deposited data

How the results depend on the processing

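Under DESeq2, 4566 of all intervals were called, against 16649 in edgeR, with 3 members lower and 1 higher and 6 partners lower and 2 higher. Against a 1.5-fold minimum 2887 intervals were called, with 1 member lower and 0 higher, 6 partners lower and 0 higher, and 0 members on summed counts. With gene-end intervals alone 0 members were lower and 1 was higher, 0 partners were lower and 5 higher, and 1 member was called on summed counts. Within 50 kb, 3 members were higher. With 1 library left out, the intervals called ran from 9043 to 19997, the members lower from 4 to 9 and higher from 1 to 7, the partners lower from 9 to 14 and higher from 3 to 9, and the members called on summed counts from 2 to 4. With library totals only, 58.0% of the calls were lower, against 68.2% with TMM factors, and the median log2 fold change of all intervals was 0.06 against 0.01. Replicate numbers share no stated batch, and the deviations of same-numbered libraries did not correlate (r = -0.0263). With the replicate block 16570 intervals were called, 7 members lower and 5 higher; the CASP10 interval at 201208670 was not called (-0.30, adjusted p = 0.0542, edgeR), nor was the difference of the FAS interval at 89087780 from its gene (0.65, adjusted p = 0.0826, edgeR).

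Among the called, gene-end and annotated-start intervals of the 8 genes, their summed counts and the named partner intervals, sign changed at these values, none of them called: the FAS start at 88990314 (-0.0388 to 0.186 with 1 library left out), the TNFRSF10A gene end (0.0141 with totals only, -0.0885 to 0.00118 with 1 library left out), the TNFRSF10B gene end (-0.00726 with DESeq2, -0.0237 with the replicate block, -0.255 to 0.169 with 1 library left out), the CASP8 start at 201232964 (-0.0184 to 0.0337 with 1 library left out), the CFLAR gene end at 201115833 (0.0213 with totals only, -0.151 to 0.118 with 1 library left out), summed TNFRSF10B (-0.0773 to 0.118 with 1 library left out) and summed CASP8 (-0.000838 with DESeq2's size factors, -0.000789 with DESeq2, -0.000378 with the replicate block, -0.0204 to 0.0212 with 1 library left out). The cause was not tested.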
